A study of Mus musculus with 6 samples.

Results

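The ATP-binding cassette (ABC) transporter genes were taken by symbol, as all genes named Abca to Abcg with a number plus Cftr, the ABC family member that forms a chloride channel. The rule found 51 of the 24421 genes in the count table, among them Abcc3, an efflux pump for organic anions that is followed together with Cftr. The 6 RNA-seq libraries, 1 per group, measured endothelial cells with altered levels of Dot1l, the histone methyltransferase that methylates lysine 79 of histone H3. Blood endothelial cells (BECs) were sorted from mouse skin at E15.5 as cells that lacked F4/80, CD45 and Lyve1 and carried CD31, with the RNA of 2 to 3 embryos pooled in each library. Cont BECs were Tie2-Cre(-); Dot1l 2f/2f and cKO BECs were Tie2-Cre(+); Dot1l 2f/2f, so both carried the floxed alleles and differed in a Cre that the Tie2 promoter drives in endothelial and also in blood cells. The other 4 libraries came from an embryonic yolk sac BEC line (CRL-2581) and embryonic dermal lymphatic endothelial cells (LECs, C57-6064L), each from 2 to 3 culture flasks. OE-BECs and OE-LECs had received a lentivirus with dCas9-VP64, a transcription activator without cutting activity, and guide RNAs to the Dot1l promoter, and GFP-positive cells were sorted. Cont BECs and Cont LECs of the culture had received empty lentivirus, so that transduction was common to all 4 cultured libraries.

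ABC transporters use the energy of ATP to move lipids, drugs, bile salts, peptides, metabolic conjugates or ions across membranes. The ABCA and ABCG subfamilies are known for the handling of cholesterol and phospholipids, ABCB and ABCC for the export of drugs and organic anions, and ABCD for the import of fatty acids into peroxisomes, whereas ABCE and ABCF proteins carry no membrane part and act on ribosomes. In endothelium the family is best known for P-glycoprotein and Abcg2, which return drugs to the blood at the blood-brain barrier, and for the sterol exporters Abca1 and Abcg1. Liver X receptors, which sense oxidized sterols, are known to switch on Abca1 through a DR4 element, a repeat of a receptor binding site with 4 bases between the copies.

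Total reads were between 8863349 and 31032461 per library, and the 51 genes took 0.20% to 0.362% of them. With 1 library per group there is no replicate check, no test of a condition was possible, and each comparison describes 2 libraries. Dot1l had 762 reads in skin Cont BECs and 944 in cKO BECs, which normalized to nearly equal levels (log2 -0.07, 95% interval -0.21 to 0.07). The count over the whole gene thus did not show the deletion, and cKO is used here as the label of that library. Dot1l was 2.78-fold higher in OE-BECs (1972 and 4208 reads) and 2.30-fold higher in OE-LECs (2490 and 6720 reads). Prox1, the defining transcription factor of LECs, had 0 reads in all 4 cultured libraries and 1304 and 883 reads in the skin libraries, and Lyve1 had 9105 and 19959 reads in the skin cells sorted as Lyve1 negative. The ribosomal RNA repeat Rn45s took 5.91% of reads in cultured Cont BECs and 10.9% in OE-BECs, and at most 0.570% in the other 4 libraries.

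The promoter windows of Abca1, Cftr and Abcb1b are shown because these members passed the fold of 3 in a changed-over-control comparison with at least 20 normalized counts. Abcc3 passed too and is named only. Each is the 250 bases before the RefSeq start on the gene's strand in GRCm38.p6 (mm10). Capitals mark matches on either strand to 5 motifs. The DR4 element was searched as a pair of GGTNA copies with 5 free bases between them. The GC box was searched as GGGCGG. The other motifs were CCAAT as the CCAAT box, then TATAAA as the TATA box and TGACGTCA as the cyclic AMP element, and overlapping matches were all counted. Abca1 lies on the minus strand (chr4:53159896-53160145), Cftr on the plus strand (chr6:18170437-18170686) and Abcb1b on the plus strand (chr5:8797897-8798146).
Abca1: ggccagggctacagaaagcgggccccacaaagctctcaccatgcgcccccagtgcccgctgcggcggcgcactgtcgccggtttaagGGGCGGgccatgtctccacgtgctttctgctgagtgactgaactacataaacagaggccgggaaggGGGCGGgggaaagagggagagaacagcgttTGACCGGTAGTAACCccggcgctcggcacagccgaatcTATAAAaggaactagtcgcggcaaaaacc
Cftr: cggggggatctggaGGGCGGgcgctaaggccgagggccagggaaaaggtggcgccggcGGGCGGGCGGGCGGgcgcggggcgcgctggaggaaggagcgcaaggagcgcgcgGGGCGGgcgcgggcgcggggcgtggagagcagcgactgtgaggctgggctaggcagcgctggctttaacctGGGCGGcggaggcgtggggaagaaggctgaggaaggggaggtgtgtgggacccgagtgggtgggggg
Abcb1b: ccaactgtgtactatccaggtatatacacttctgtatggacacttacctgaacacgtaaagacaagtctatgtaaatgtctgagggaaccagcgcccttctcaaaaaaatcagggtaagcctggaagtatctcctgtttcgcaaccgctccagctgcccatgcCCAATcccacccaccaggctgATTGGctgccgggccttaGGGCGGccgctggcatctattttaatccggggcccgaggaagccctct
The Abca1 window had 2 GC boxes, a TATAAA 29 bases before the start and, 67 bases before it, the DR4 match, the only one among the 46 windows that RefSeq gave for 39 of the 51 genes. A DR4 match was in 0.563% of all 20788 windows. The Cftr window had 6 GC boxes, of which 3 overlapped, and 30 CpG, with no CCAAT and no TATAAA, and the median window of all genes had 10 CpG. The Abcb1b window had 2 CCAAT matches, 87 and 66 bases before the start, and 1 GC box. GC boxes were in 45.7% of the members' windows and 43.1% of all windows, and CCAAT in 28.3% and 35.0%. TATAAA was in 10.9% of the members' windows and 11.3% of all windows, and TGACGTCA in 4.35% and 2.0%. A match is a description of the letters, and no binding was measured here.

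Levels of the family were compared first. Counts are given as reads, or as counts per 1000000 reads (CPM), and levels of different genes are ranked only as CPM per kilobase of exon. At that scale Abca1, which loads cholesterol and phospholipid onto apolipoprotein A-I, had the highest level of the family in skin Cont BECs (97.1) and cKO BECs (142). It was above 98.8% of 23376 genes in skin Cont BECs. Abce1, which splits ribosomes after termination, came next in skin Cont BECs with 42.7 and Abcf1, which acts in translation initiation, followed with 37.6. In the cultured cells the order was led by Abcf2, another ribosome-associated member, with 82.2 in Cont BECs and 94.3 in Cont LECs, again followed by Abce1 (49.9 and 76.5) and Abcf1 (41.3 and 35.0). Abca1 followed them in cultured Cont BECs with 26.8, and was at 7.03 in Cont LECs.

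**Figure D1:**
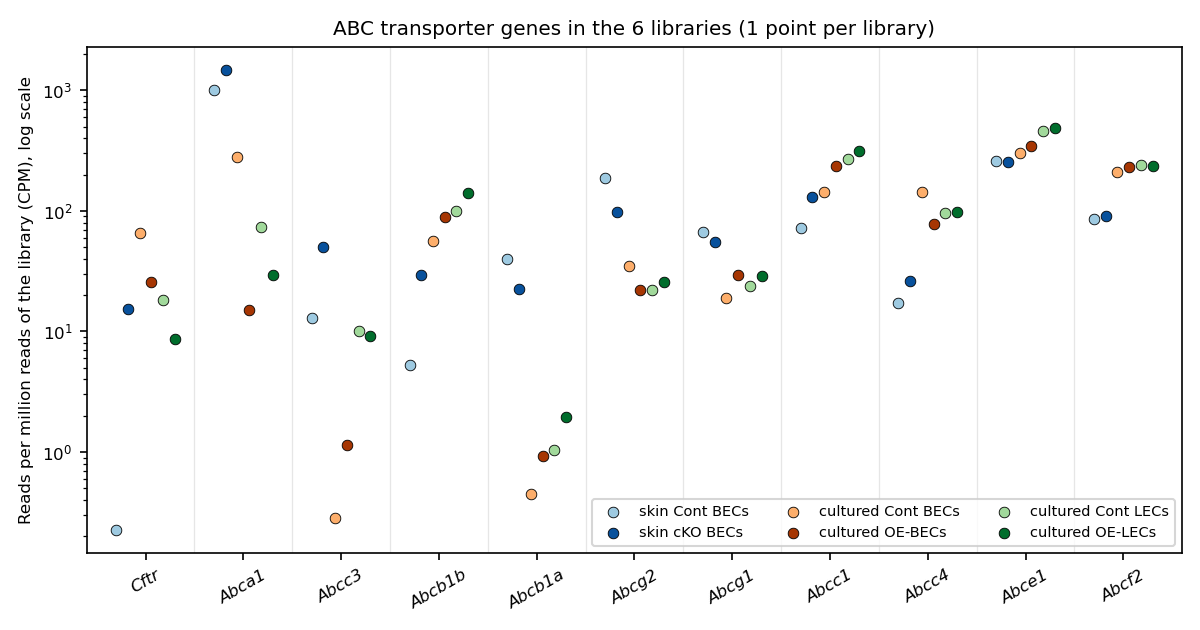
Levels of 11 ABC genes in the 6 libraries, 1 point per library, on a log scale of CPM. CPM is not corrected for gene length, so the points compare libraries within a gene. Abca1 spans 15 to 1471 CPM and Cftr 0.226 to 66.0 CPM, while Abce1 lies between 252 and 488 CPM and Abcf2 between 85.0 and 242 CPM.

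Above the floor of 3 reads, which is the upper limit a count of 0 allows, were 42 members in skin Cont BECs and 44 in cKO BECs, against 29 to 35 in the cultured libraries. Of all genes, 15534 and 16183 were above it in the skin libraries and 13193 to 13754 in the cultured ones. As shares, 82.4% of the members and 63.6% of all genes were above it in skin Cont BECs. In cultured Cont BECs these shares were 60.8% and 56.1%. Of the 51 genes, 28 were above the floor in all 6 libraries and 4 (Abca15, Abca16, Abca17 and Abcg5) in none. The floor was 0.338 CPM in skin Cont BECs and 0.0967 CPM in OE-LECs. The ABCA subfamily took 47.1% of the members' reads in skin Cont BECs, 24.3% in cultured Cont BECs and 14.1% in Cont LECs, and the 3 ABCF genes took 9.36%, 20.1% and 19.4% of them. These shares are not corrected for gene length. Abca1 alone had 8917 of the members' 27496 reads in skin Cont BECs, 4912 of 39650 in cultured Cont BECs and 1903 of 62670 in Cont LECs.

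**Figure D2:**
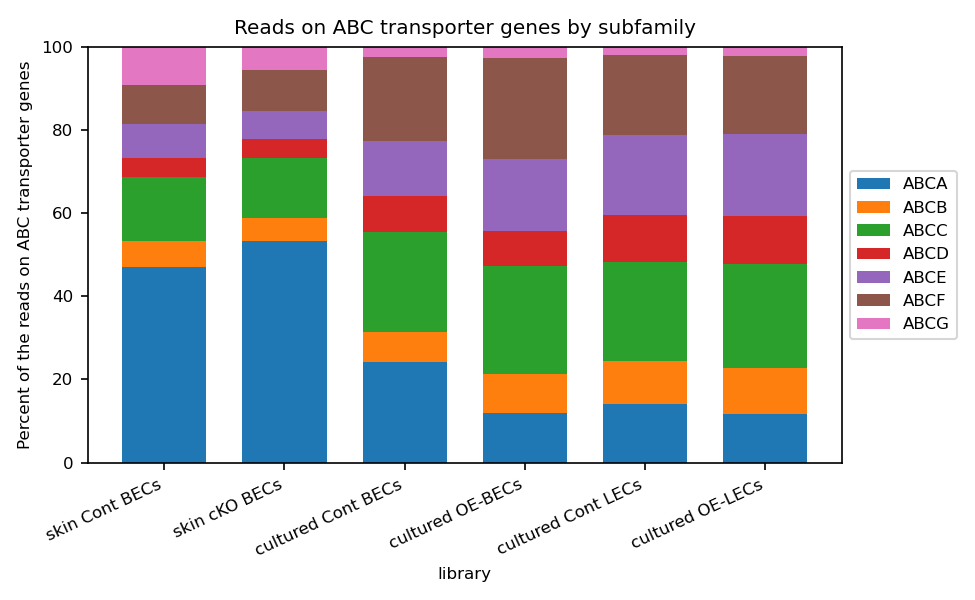
Share of the members' reads (percent) taken by each of the 7 subfamilies in each library, with Cftr counted in ABCC. Shares are of reads and are not corrected for gene length. The ABCA share is 53.3% in cKO BECs and 11.6% in OE-LECs, the highest and the lowest of the 6 libraries.

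Cultured and skin Cont BECs differ in tissue, culture, lentiviral transduction and sorting, and the skin cells carried floxed Dot1l alleles. These differences cannot be told apart. The call used throughout is a fold above 3 with a minimum normalized count in the higher library (3 here). By it 8 members were higher and 18 lower in cultured Cont BECs, against 11.1% and 26.5% of all 16611 genes tested. Ratios use DESeq2 size factors of the 2 libraries compared, and intervals are exact 95% intervals of the log2 ratio from the reads, which cover counting error only. With a minimum of 20 normalized counts these were 7 and 12 of 36 members, against 10.8% and 20.8%. Abca9, Abca8a, Abcc9 and Abcg3 each had more than 100 reads in both skin libraries and 0 to 3 in the cultured ones. Abca9, a lipid transporter of the chromosome 11 cluster, had 1884 and 2111 reads in skin and 0 reads in all 4 cultured libraries, at least 1061-fold lower in cultured Cont BECs. Abcc9, the sulfonylurea receptor SUR2 that regulates potassium channels of pericytes and smooth muscle, had 2478 and 2459 reads in skin and 1, 0, 0 and 0 in culture (log2 -12.03, interval -17.34 to -9.55). Kcnj8, the channel pore that pairs with Abcc9, had 193 and 210 reads in skin and 0 in each cultured library, and the related pore Kcnj11 had at most 2 in any. Abcg3 had 262 and 523 reads in skin and 0 in culture, at least 148-fold lower. The summed level of 8 pericyte markers was 596 and 478 CPM in skin and 4.75 to 6.22 CPM in culture, and that of 7 fibroblast markers 2532 and 1867 CPM against 2.83 to 20.4 CPM. The part of these cell types in the skin levels was not tested, and in bulk RNA more cells of a type and more RNA per cell cannot be told apart.

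Exporters of drugs and organic anions, and Cftr, differed in both directions between culture and skin. Abcb1a, 1 of the 2 mouse P-glycoprotein genes, was 74.1-fold lower in cultured Cont BECs (351 and 8 reads), and the other, Abcb1b, was 12.6-fold higher (47 and 1001 reads). Abcg2 was 4.53-fold lower (1665 and 621 reads). Abcc4, an exporter of cyclic nucleotides and urate, was 9.87-fold higher (153 and 2551 reads). Abcc3 was 38.9-fold lower (115 and 5 reads), and Cftr, with 2 reads in skin and 1167 in culture, had the largest ratio upward (log2 8.43, interval 6.58 to 11.48).

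**Figure D3:**
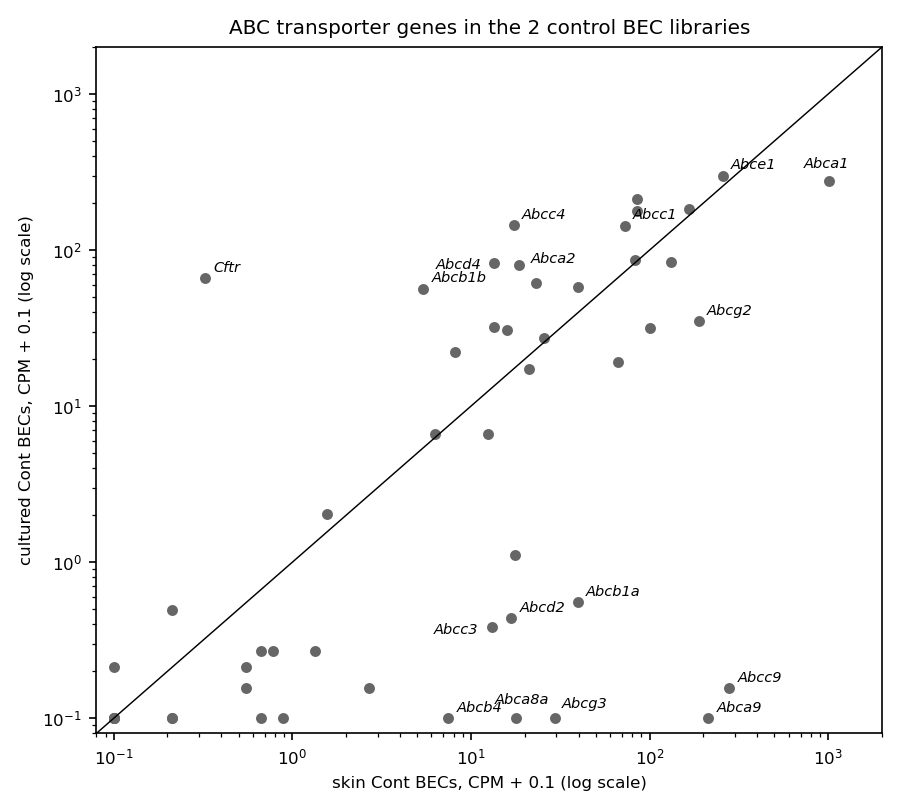
CPM of each ABC gene in skin Cont BECs (x axis) and cultured Cont BECs (y axis), both on a log scale after adding 0.1 CPM, with the diagonal of equal CPM. Abca9, Abcg3, Abca8a and Abcb4 sit at 0 reads in culture, while Cftr and Abcb1b lie far above the diagonal.

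The pair of skin libraries compared the cKO label with its control. In cKO BECs 3 of the 43 members tested rose, Cftr, Abcb1b and Abcc3, and 0 fell, against 5.17% of 15993 genes called higher and 2.41% called lower. With a minimum of 20 normalized counts these 3 were still called, of 37 members tested, against 2.73% of genes higher and 1.12% lower. Over the 43 members with at least 10 reads the median log2 ratio was 0.26, and 0.00 over all 15554 such genes. Of these members 28 were higher and 15 lower, and the interval lay above 0 for 20 and below 0 for 11. Of all such genes 50.3% were higher and 49.7% lower, with the interval above 0 for 23.1% and below 0 for 25.4%.

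Cftr had 2 reads in skin Cont BECs and 171 in cKO BECs, which is 0.226 and 15.4 CPM. The log2 ratio was 6.04 (interval 4.16 to 9.10), and its size rests on the 2 reads of the control. The level in cKO BECs was below that of cultured Cont BECs (66.0 CPM), OE-BECs (25.9 CPM) and Cont LECs (18.1 CPM), and above that of OE-LECs (8.60 CPM). Only skin Cont BECs were at or under the floor of 3 reads for Cftr. The gene spans 18170687 to 18322768 on chromosome 6 (plus strand), and 1.66% of its exon bases overlap an annotated gene on the other strand.

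Abcb1b had 47 reads in skin Cont BECs and 327 in cKO BECs, and in culture 1001 and 1235 in Cont BECs and OE-BECs and 2619 and 4392 in the 2 LEC libraries. It rose 5.35-fold in cKO BECs (log2 2.42, interval 1.98 to 2.89). Abcb1a had 351, 251, 8, 13, 27 and 61 reads in the same order and was 1.82-fold lower in cKO BECs (log2 -0.86, interval -1.10 to -0.62). The sum of both genes had a log2 ratio of 0.16 (interval -0.03 to 0.35) between the skin libraries. Both lie on chromosome 5, at 8660077 to 8748575 and 8798147 to 8866315 on the plus strand, and 17.6% of the 50-base words of Abcb1a and 11.6% of those of Abcb1b also occur in other genes, each other among them, so reads from those stretches cannot be assigned with certainty. A further 10.1% of the exon bases of Abcb1a overlap a gene on the other strand.

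Abcc3 had 115 and 560 reads in the skin libraries, 5 and 16 in cultured BECs and 262 and 284 in LECs. It rose 3.75-fold in cKO BECs (log2 1.91, interval 1.61 to 2.21). The gene spans 94343295 to 94392997 on chromosome 11 (minus strand) with no overlapping exon. Abcc1, a related exporter of glutathione conjugates, had 641 and 1440 reads (log2 0.79, interval 0.65 to 0.93), and Abcc4 had 153 and 290 reads (0.54, interval 0.26 to 0.84). Both were below the fold of 3. Abcc5 (749 and 819 reads) and Abcc9 had intervals below 0, at log2 ratios of -0.25 and -0.39.

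The sterol exporters differed from each other in sign. Abca1 had 8917 reads in skin Cont BECs and 16310 in cKO BECs, a log2 ratio of 0.49 (interval 0.46 to 0.53) and 0.55 when scaled by total counts. Abcg1, which exports cholesterol to HDL, had 592 and 614 reads (log2 -0.33, interval -0.49 to -0.16). Abcg2 had 1665 and 1090 reads, and with a log2 ratio of -0.99 (interval -1.10 to -0.88) it was 1.98-fold lower, the lowest ratio of the members tested with at least 20 reads in both libraries. Abca5, a lysosomal member, had 187 and 478 reads and was 1.97-fold higher (log2 0.98). The ribosomal members Abce1 (2274 and 2795 reads, log2 -0.08) and Abcf2 (753 and 1000 reads, 0.03) had intervals that include 0.

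The chromosome 11 cluster of ABCA genes (Abca5, Abca6, Abca8a, Abca8b and Abca9, between 109932190 and 110337716 on the minus strand) had both signs in cKO BECs. In skin Cont and cKO BECs Abca6 had 23 and 73 reads (log2 1.29, interval 0.60 to 2.03), Abca8b 156 and 326 (0.69, interval 0.41 to 0.97), Abca8a 157 and 159 (-0.36, interval -0.69 to -0.03) and Abca9 1884 and 2111 (-0.21, interval -0.30 to -0.12). Abca5 and Abca8b were above the floor in all 6 libraries, and Abca9 in the skin libraries only. The sum of the similar pair Abca8a and Abca8b had a log2 ratio of 0.25 (interval 0.05 to 0.46) in cKO BECs. Abca12, which delivers lipid to the skin barrier in keratinocytes, had 5 and 19 reads in skin (log2 1.55, interval 0.08 to 3.32) and at most 5 in culture.

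Of the mitochondrial members described here, Abcb6, Abcb8 and Abcb10 were above the floor in every library. Abcb10, which supports heme synthesis, and Abcb8 had intervals that include 0 in cKO BECs (log2 0.23 and -0.08). Abcb6, a porphyrin transporter, had a log2 ratio of 0.57 there (interval 0.23 to 0.92), and 55.2% of its exon bases overlap another annotated gene on the same strand. Among the peroxisomal members Abcd2 had 148 and 117 reads in skin (log2 -0.72, interval -1.08 to -0.36) and 6, 0, 0 and 0 in culture. Abcd3 had 737 and 1062 (0.15, interval 0.01 to 0.29). Abcd4, which moves cobalamin out of lysosomes, had 119 and 262 (0.76, interval 0.44 to 1.09) and was 7.28-fold higher in cultured than in skin Cont BECs.

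Transporters known from bile formation had few reads. Abcb11, the bile salt export pump, had 0 reads in skin and at most 5 in any library, and the sterol exporters Abcg5 and Abcg8 had at most 1 and 13. Abcc2, a canalicular exporter, had 11 and 23 reads in skin and 1 to 6 in culture. Abcb4 had 65 and 43 in skin (log2 -0.97, interval -1.56 to -0.40) and 0 to 5 in culture. Skin libraries were the higher ones for Abcc2, Abcb4 and Abcg8.

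**Figure D4:**
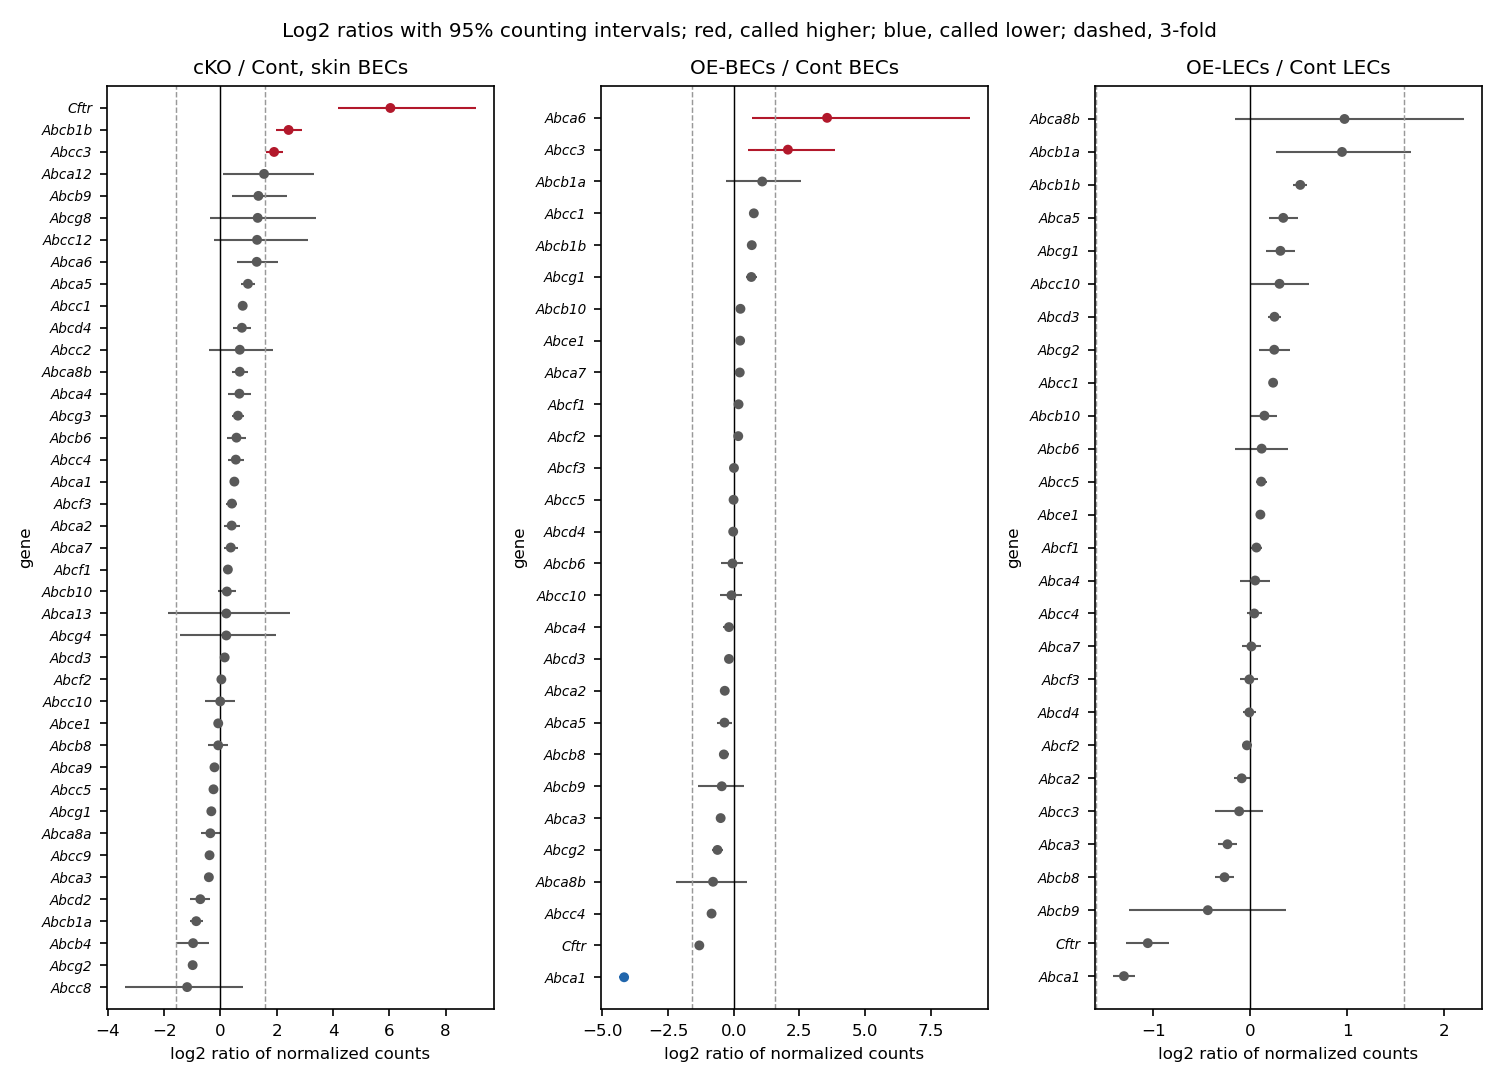
Log2 ratios of members with at least 10 reads in the pair, in the 3 changed-over-control comparisons, with exact 95% counting intervals and the fold of 3 marked. The panels have their own x axes, members with 0 reads in a library have no point, and only Cftr, Abcb1b and Abcc3 in cKO BECs and Abca1, Abcc3 and Abca6 in OE-BECs lie past the fold of 3.

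Genes that work with the transporters were counted from lists of known partners. Of 15 genes of the xenobiotic and NRF2 response, which drives several ABCC exporters, 13 were higher in cKO BECs with a median log2 ratio of 0.73, where 50.3% of all genes were higher and 5.17% were called higher. Hmox1, the heme-degrading enzyme, rose 8.77-fold (971 and 11072 reads), Srxn1, which repairs peroxiredoxins, 6.47-fold (104 and 874 reads) and Slc7a11, the cystine importer, 5.39-fold (25 and 175 reads). Of the list 3 genes were called higher and 0 lower. In OE-BECs and OE-LECs the list had 0 calls and medians of 0.03 and -0.02. Whether this response had a part in the ratios of the transporters was not tested. Of 14 genes of the liver X receptor and sterol efflux list, 0 were called in cKO BECs, and 10 were higher and 4 lower (median 0.19). Of 12 genes of sterol synthesis and uptake, 0 were called and 10 were lower (median -0.34), where 49.7% of all genes were lower. The 18 genes of Cftr partners and ion secretion had 0 calls and a median of -0.01. The peroxisome (median 0.07), peptide loading (0.02), ribosome recycling (-0.09) and heme and iron-sulfur (0.07) lists had 0 calls in cKO BECs.

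Markers of other cells also moved with the cKO label. For comparison, 50.3% of all genes with at least 10 reads were higher and 49.7% lower. Calls were made for 5.17% (higher) and 2.41% (lower) of the genes tested. Of 12 macrophage markers 11 were higher (median 0.71) and their summed level was 3883 CPM in Cont and 5980 CPM in cKO BECs. Marco, a macrophage scavenger receptor, rose from 5 to 360 reads. Of 10 keratinocyte markers with at least 10 reads 8 were higher (median 0.79, summed 232 and 403 CPM), and Krt1, Krt10, Lor and Krtdap were called higher. The 7 secretory epithelium markers, the class in which Cftr is best known, summed to 38.7 and 61.7 CPM with 6 of them higher and Krt19 (53 and 223 reads) called. Mast cell markers summed to 2905 and 4099 CPM (median 0.30), although Mrgprb1 went from 191 to 4 reads and was called lower. Of 12 blood endothelial markers 11 were lower (median -0.66, summed 6811 and 4342 CPM), as were 7 of 8 pericyte markers (median -0.40) and 6 of 7 fibroblast markers (median -0.45). Medians were -0.22 for lymphatic endothelium, 0.30 for melanocytes and Schwann cells, -0.57 for skeletal muscle and -0.78 for adipocytes, of which Adipoq, Plin1 and Cidec were called lower. Of 7 erythroid markers only 3 had at least 10 reads (median -0.87), and the 4 globin genes had 0 reads. No marker of the macrophage, keratinocyte, epithelial, blood endothelial, pericyte or fibroblast lists was at 0 in either skin library. The part of these cells in the ratios of the transporters was not tested.

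Forced expression of Dot1l was addressed in both cultured lines. In OE-BECs 7 of the 39 members tested were called higher and 3 lower, against 8.02% and 5.27% of 14792 genes. Most of these calls rest on few reads: with a minimum of 20 normalized counts, 0 of 26 members were called higher and 1 lower, against 1.85% and 2.18% of 11974 genes. In OE-LECs 0 of 30 members were called in either direction, against 2.77% of 13883 genes called higher and 2.09% called lower, and 0 of 29 with a minimum of 20 (0.919% and 0.43% of genes). Median log2 ratios of the members were -0.02 over 31 genes in OE-BECs (all genes -0.01) and 0.05 over 29 genes in OE-LECs (all genes 0.00).

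Abca1 was the member called in OE-BECs at every minimum. Its reads went from 4912 in cultured Cont BECs to 209 in OE-BECs (278 and 15 CPM) and from 1903 in Cont LECs to 906 in OE-LECs (72.9 and 29.2 CPM). It fell 18-fold in OE-BECs (log2 -4.17, interval -4.38 to -3.97) and had a log2 ratio of -1.30 in OE-LECs (interval -1.42 to -1.19), below the fold of 3. The gene spans 53030787 to 53159895 on chromosome 4 (minus strand) with no overlapping exon. Its rank within the family by CPM per kilobase went from 4 in Cont BECs to 22 in OE-BECs, and from 15 to 20 in LECs. Both overexpressing libraries were below their control, and OE-BECs were the lowest of the 6. Cont LECs were themselves 4.10-fold below Cont BECs for Abca1. The Abca1 window with the DR4 letters is printed above. Of the 14 genes of the liver X receptor and sterol efflux list, 0 were called in either line, with medians of -0.04 and -0.03. The list holds no ABC genes, and the sterol exporter Abcg1 was higher in both lines (log2 0.67 and 0.31). The part of liver X receptors in the ratios of Abca1 was not tested. Mylip, a liver X receptor target that degrades the LDL receptor, had 0 reads in all 4 cultured libraries and 654 and 963 in skin. Of the 12 genes of sterol synthesis and uptake, 6 were higher and 6 lower in OE-BECs (median 0.01) and 12 were lower in OE-LECs (median -0.69), with 0 called. Of all genes 51.2% were lower in OE-BECs and 49.1% in OE-LECs.

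Cftr counts were 1167 in cultured Cont BECs against 361 in OE-BECs, and 473 in Cont LECs against 267 in OE-LECs. It was 2.48-fold lower in OE-BECs (log2 -1.31, interval -1.48 to -1.14) and 2.08-fold lower in OE-LECs (log2 -1.06, interval -1.28 to -0.84). Neither passed the fold of 3. Every cultured library had more Cftr than skin Cont BECs, and Cont LECs were 3.92-fold below Cont BECs. The partner list had medians of 0.08 and 0.21, and among it Ano1, a calcium-activated chloride channel, rose in both lines, from 2 to 16 reads in OE-BECs (log2 3.38, interval 1.29 to 6.55) and from 27 to 280 in OE-LECs (8.84-fold). Ano1 was the only gene of the 18 called in either line, where 8.02% (OE-BECs) and 2.77% (OE-LECs) of all genes were called higher. The 7 secretory epithelium markers summed to 0.766 to 3.37 CPM in the cultured libraries, and Epcam, which defines epithelium, had 0 reads in each. Others of the list, Cdh1, Krt19 and Cldn4, were called higher in OE-BECs and Krt19 in OE-LECs, with 0 called lower. Only 1 and 2 of the 7 had at least 10 reads in those pairs. Between cultured and skin Cont BECs, Muc1 was called higher and 6 of the list lower, against 11.1% and 26.5% of all genes tested. Scnn1g, a subunit of the epithelial sodium channel, had 0 reads in all 6 libraries.

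Abcc3 was called higher in OE-BECs on 5 and 16 reads (log2 2.06, interval 0.55 to 3.86). In LECs, where it was 33.0-fold higher than in Cont BECs, 262 and 284 reads gave a log2 ratio of -0.11 (interval -0.36 to 0.13). Its level in OE-BECs, 1.15 CPM, was below that of Cont LECs at 10.03 CPM. The other members called in OE-BECs had at most 10 reads in either library. Abca6 had 1 and 9 reads (log2 3.55, interval 0.70 to 9.01). Abcc8, the SUR1 sulfonylurea receptor, had 0 and 10 reads and was at least 4.35-fold higher, and Abcb4, the phosphatidylcholine floppase, had 0 and 5 and was at least 2.17-fold higher. Abcb5 had 0 and 4 reads, and Abca8a and Abca17 each had 0 and 3, which is at the floor. Abcc6 had 7 and 0 reads and Abcd2 6 and 0.

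In OE-BECs and OE-LECs, which have separate controls, 15 members had intervals that exclude 0 in both comparisons, 12 with the same sign and 3 with opposite signs. These were 15 of the 29 members with at least 10 reads in both pairs. Of all 12570 such genes, 32.1% had both intervals apart from 0, and 70.4% of those had the same sign, against 80.0% of the 15 members. Of the 12, 6 were lower in both, among them Abca1, Cftr, Abca3, Abcb8 and Abca2. Abca3, which loads phospholipid into lamellar bodies, had log2 ratios of -0.50 and -0.24, Abcb8, of the mitochondrial inner membrane, -0.38 and -0.27, and Abca2, an endolysosomal lipid transporter, -0.34 and -0.09. Higher in both were Abcb1b, Abcc1, Abcg1, Abce1, Abcf1 and the mitochondrial Abcb10. Abcb1b had log2 ratios of 0.69 (interval 0.56 to 0.81) and 0.52 (interval 0.44 to 0.59). Abcc1 had 0.76 and 0.24, and Abcg1 0.67 and 0.31. All of these but Abca1 in OE-BECs were below the fold of 3.

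**Figure D5:**
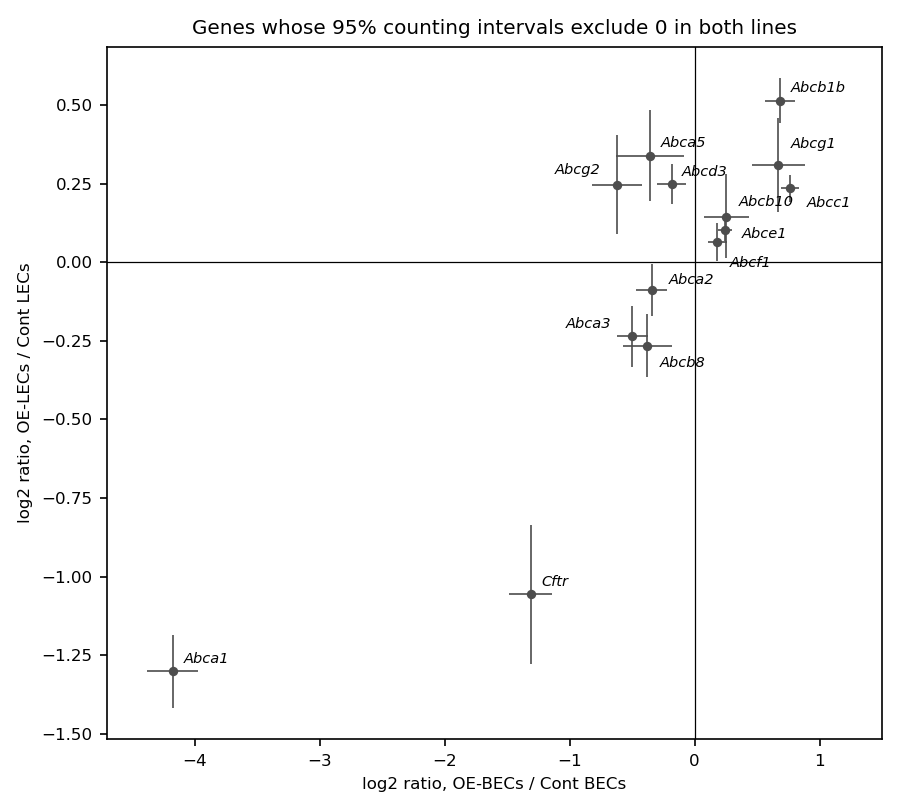
Log2 ratios of 14 members whose counting intervals exclude 0 in both lines, OE-BECs on the x axis and OE-LECs on the y axis, with bars for the exact 95% intervals. Abca1 and Cftr lie apart from the others at the lower left, and Abcg2, Abca5 and Abcd3 lie in the quadrant of opposite signs.

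Members of the other lists were counted beside the transporters that they serve. Of all genes with at least 10 reads, 51.2% were lower in OE-BECs, and in OE-LECs 49.1% were lower and 50.9% higher. Of 11 peroxisome genes 9 were lower in OE-BECs (median -0.52) and 7 in OE-LECs (median -0.03), with 0 called. Of 10 peptide loading genes, which include the ABC transporters Tap1 and Tap2 that the naming rule leaves out, 7 were lower in OE-BECs (median -0.29) and 10 were higher in OE-LECs (median 0.34), with 0 called. The 8 ribosome recycling genes (medians 0.11 and 0.04) and 14 heme and iron-sulfur genes (medians -0.08 and 0.04) had 0 calls. Of 12 blood endothelial markers 11 were lower in OE-BECs and 10 in OE-LECs (medians -0.41 and -0.24). Flt1, a VEGF receptor, fell 4.40-fold and the tight junction gene Cldn5 3.31-fold in OE-BECs. They were the 2 genes of that list called in OE-BECs, where 5.27% of all genes were called lower, and 0 were called in OE-LECs. Macrophage markers summed to 33.9 to 93.8 CPM in the cultured libraries with 8 of 12 at 0 reads in each, Adgre1, Cd163 and the 3 C1q genes among them, and keratinocyte markers to 5.60 to 9.60 CPM. The share of Rn45s also differed between OE-BECs and their control, and its part in the ratios of the transporters was not tested beyond the scaling without Rn45s.

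The 2 cultured control lines differ in the endothelial type of their label, tissue of origin, supplier and Rn45s share, which cannot be told apart. Between them 1 member was called higher in Cont LECs and 7 lower, against 4.12% and 13.1% of 14419 genes. With a minimum of 20 normalized counts, 1 of 29 members (Abcc3) was higher and 2 (Abca1 and Cftr) were lower, against 2.79% and 7.1% of genes. Abcb8 (log2 0.87), Abcc1 (0.81) and Abcb1b (0.72) were higher in Cont LECs below the fold of 3, and Abcg2 (-0.78) and Abcc4 (-0.68) lower.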

How the data were processed

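Total RNA was made into RNA-seq libraries with the ScriptSeq v2 kit. The authors trimmed adapters with skewer, aligned the reads to mm10 with STAR, counted them per gene with VERSE and deposited raw counts for 24421 gene symbols in 6 libraries, 1 per group. Embryos or flasks were pooled within a library. No molecular identifiers are stated, so reads may include PCR copies, and intervals and floors cover counting error only. The strand setting used for counting could not be settled, so reads of overlapping genes may be shared.

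For each comparison, size factors of its 2 libraries came from the median-of-ratios method (DESeq2 1.42.0, R 4.3.3), which the study also used. A gene was called where its higher normalized count was at least 5 (skin cKO) or 3 (all other comparisons) and exceeded the lower one more than 3-fold. Each log2 ratio has an exact (Clopper-Pearson) 95% interval. Against 0 reads a fold was computed from the floor of 3 reads, and no fold was given where both libraries were at or under it. Medians of log2 ratios use a pseudocount of 1 and leave out genes with fewer than 10 reads in both libraries together, so ratios of low genes are understated there. Gene positions, exon lengths, overlaps and shared 50-base words came from GENCODE M21 (mm10), and promoter windows from RefSeq. All 51 members had a length. Python 3.11.15 with pandas 2.3.3 and scipy 1.17.1 was used, and the scripts were tested on simulated data. With counting noise only and 24421 genes simulated, unchanged genes were also called, 227 for cKO BECs, 467 for OE-BECs and 358 for OE-LECs. With a minimum of 20 normalized counts these were 2, 5 and 2.

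The members and the 21 gene lists (9 of partner genes, 12 of cell type markers) were chosen with earlier results of these data known. Named members were Cftr, Abcc3, members called with at least 20 normalized counts, the 3 with the highest CPM per kilobase in each control library, the highest of each subfamily, and those whose intervals exclude 0 in both overexpression comparisons, 17 in all. Some members enter the counts and medians but are not reported here by name or drawn in the plots of ratios. Other members were named in sentences on their subfamily, and list genes where called or at 0 in the cultured or in all libraries. Alternatives were size factors from all 6 libraries, TMM factors of edgeR 4.0.16, total counts with and without Rn45s, other minimums, a fold of 2 and other pseudocounts.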

Additional observations from a re-analysis of the deposited data

Results flagged for a closer look

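In all, 3 members differed in opposite directions in the 2 cultured lines, with counting intervals that exclude 0 in each. The log2 ratio of Abcg2, the drug exporter of the blood-brain barrier, was -0.62 in OE-BECs (interval -0.82 to -0.42, 621 and 310 reads) and 0.25 in OE-LECs (interval 0.09 to 0.40, 573 and 798 reads). For the lysosomal Abca5 it was -0.35 in OE-BECs (303 and 182 reads) and 0.34 in OE-LECs (641 and 952 reads). For Abcd3, a peroxisomal importer of branched fatty acids and bile acid precursors, it was -0.18 in OE-BECs (1518 and 1026 reads) and 0.25 in OE-LECs (3300 and 4604 reads). All of these ratios were below the fold of 3, and with 1 library per group the difference between the lines was not tested.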

How the results depend on the processing

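No paired analysis was possible because each group has 1 library. Of 255 recomputed log2 ratios of the 17 named members (51 ratios under 5 alternatives), 253 stayed within the counting interval of the reported value and 0 changed sign, and the 2 outside were those of Abca1 in cKO BECs under both scalings by total counts (0.55). No scaling moved the median of all genes by more than 0.055 on the log2 scale in the 3 changed-over-control comparisons. Counts of called members depended on the thresholds. With a fold above 2, 8 of 43 members were called higher and 1 lower in cKO BECs (10.4% and 5.23% of all genes), 1 of 30 higher and 2 lower in OE-LECs (4.98% and 4.26%), 2 of 34 higher in Cont LECs against Cont BECs (10.9%), and 13 of 44 higher in cultured against skin Cont BECs (19.7%). With a minimum of 20 normalized counts, the calls in OE-BECs were 0 higher and 1 lower, and Cont LECs against Cont BECs had 2 lower. With a minimum of 100, chosen after the data were examined, the counts in OE-BECs were 0 higher and 1 lower. Without the filter on reads the median over members between culture and skin was -0.060, against 0.29. Other counts stayed within 1.5 times the reported count. The median over members was 0.24 to 0.32 in cKO BECs under all alternatives, and -0.07 to 0.02 in OE-BECs, where its sign is not fixed. Scaling by total counts set the member median between culture and skin at 0.05 and that between Cont LECs and Cont BECs at 0.13, against 0.03. Depth limits the members with few reads: the calls of Abcc3 in OE-BECs and of Cftr in cKO BECs rest on 5 and 2 control reads, and in OE-BECs 8 further calls rest on at most 10 reads in a library.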
